A study of Mus musculus with 56 samples.

Results

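HuR is an RNA-binding protein encoded by Elavl1, and males labelled as lacking it in skeletal muscle were compared here with controls, all with access to a running wheel. The comparison took the gastrocnemius, a calf muscle of mostly fast fibres, from 7 running males labelled HuR m-/- and from 7 running control males. These 14 mice, chosen by their labels alone, are part of 56 mice in 8 groups of 7, which combine sex, the HuR label and a running or a locked wheel. All were C57Bl/6 mice kept on a chow diet, and the running wheel was available for 10 weeks, from 10 to 20 weeks of age per one label, with 5 months of age given in another. In the HuR m-/- line a floxed Elavl1 allele is removed by Cre recombinase that is expressed from the Mlc1f promoter, the promoter of the muscle light chain gene Myl1, whereas the HuR fl/fl littermate controls carry the floxed allele. Deletion is therefore limited to muscle fibres, while whole muscle also holds RNA of vessels, nerve, fat and connective tissue. In such bulk samples, fewer cells of a type and less RNA per cell cannot be told apart.

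HuR binds AU-rich and U-rich stretches in the 3′ untranslated regions of many mRNAs, where it is known mainly for slowing their decay. Muscle fibres burn fatty acids and pyruvate in mitochondria, and the electrons released pass through respiratory complexes to drive ATP synthase. Running raises the demand on this machinery and also induces immediate early genes, which are transcribed within minutes of contraction or stress. The question asked of the running males was which genes and pathways differed with the HuR label while the muscle was trained.

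Elavl1 mRNA was not lower in the labelled mice. In CPM, the reads of a gene scaled to a common library size, it was 54.0 in the lowest, 62.4 in the median and 71.6 in the highest labelled mouse, against 28, 55.1 and 61.8 in the controls. The 2 groups overlapped, and the low end of the controls was made up of mice 10, 13 and 25. Its log2 fold change, labelled minus control, was 0.44 (SE 0.13, adjusted p = 0.0495 by limma, with the Benjamini-Hochberg adjustment over all genes tested), which goes against the label, and an exact two-sided permutation test over the 7 and 7 mice gave p = 0.0344. Without the control mice 10, 13 and 25 the log2 fold change was 0.078 (adjusted p = 0.774 by limma). Leaving out 1 mouse at a time lost the call in 9 of 14 fits, namely without control mouse 10, 13 or 25 and without labelled mouse 1, 2, 4, 7, 21 or 22. The same contrast for Elavl1 gave -0.04 in locked-wheel males and 0.01 in running females (unadjusted p = 0.663 and 0.95 by limma). By qPCR, the paper reports lower Elavl1 mRNA in the gastrocnemius of its HuR m-/- mice than in controls. Elavl1 (ENSMUSG00000040028) spans positions 4285382 to 4325413 on the minus strand of chromosome 8 (GRCm38). One label names a kit that reads the 3′ ends of transcripts, whereas the paper describes stranded total RNA libraries. Reads of the 3′ end alone do not check the removal of another part of the gene. Which kit was used, and why Elavl1 was not lower, was not tested. The mice are therefore called labelled HuR m-/- throughout.

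Myl1, whose promoter drives Cre and which encodes an essential light chain of fast myosin, was lower in the labelled mice. It stood at 5503 CPM in the lowest, 5864 in the median and 11084 in the highest labelled mouse, and at 10501, 11234 and 13702 CPM in the controls. Labelled mice 1, 2, 21 and 22 lay at 5503 to 5864 CPM, whereas labelled mice 4, 6 and 7 lay at 11084, 9976 and 9286 CPM, beside the controls. The log2 fold change was -0.69 (SE 0.16, adjusted p = 0.0139 by limma), and the exact permutation p was 0.00175.

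The same placing of mice was seen in other genes, named here after their values were seen. Fhl3, a LIM-domain protein of the sarcomere, was at 27.9 to 32.5 CPM in labelled mice 1, 2, 21 and 22, at 122 in mouse 4, 112 in mouse 6 and 85.5 in mouse 7, and at 80.9 to 136 in the controls. Gdap1, a mitochondrial fission protein, was at 7.21 to 10.8 CPM in mice 1, 2, 21 and 22, at 26.5 to 37.5 CPM in mice 4, 6 and 7 and at 33.1 to 41.7 in the controls. Mice labelled HuR m-/- spread as widely in the other groups. Normalized over all 56 mice, Fhl3 ran from 25.6 to 116 CPM in the labelled locked-wheel males against 86.4 to 114 in their controls, and from 17.3 to 63.5 in the labelled running females against 49.5 to 71.3 in theirs. On the first principal component, which held 23.7% of the variance of the 14 libraries, labelled mice 1, 2, 21 and 22 scored 10.1 to 16.6, labelled mice 4, 6 and 7 scored -1.46 to 2.47, and the controls -14.4 to -3.01. The part of these mice in the results was not tested beyond leaving them out, and the main results are given with and without them.

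**Figure D1:**
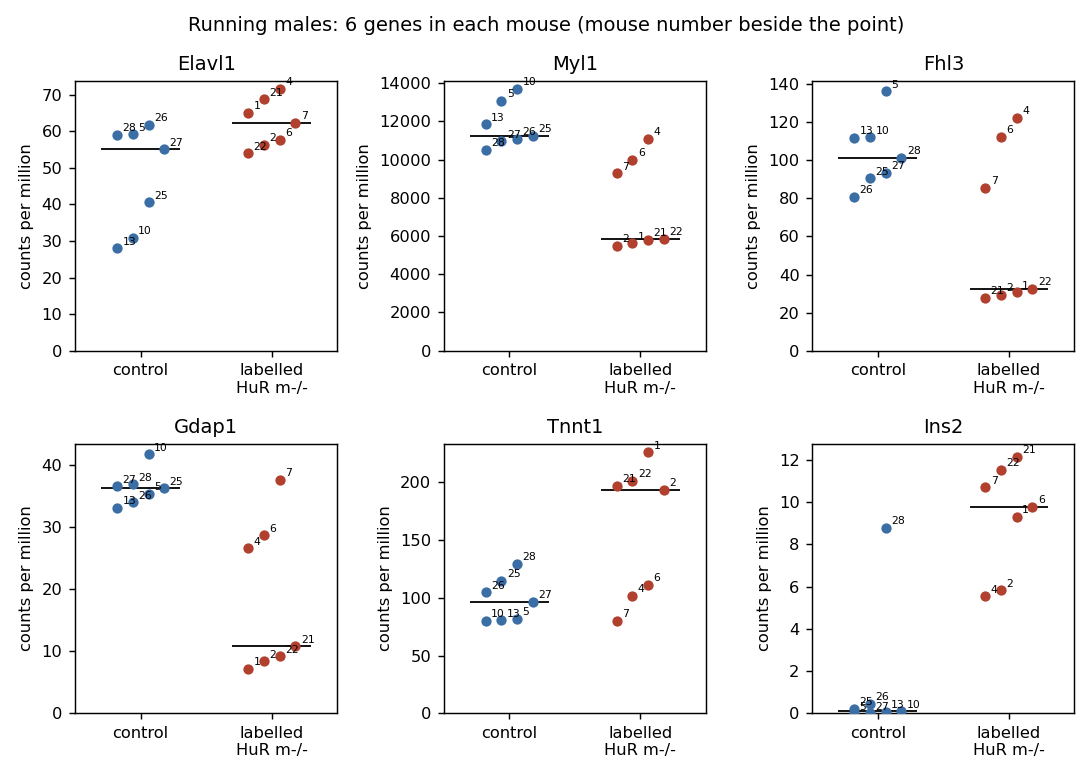
CPM of 6 genes in each running male (points, with the mouse number) for 7 controls and 7 labelled HuR m-/- mice, with the group median as a line. Labelled mice 1, 2, 21 and 22 sit apart from the controls in Myl1, Fhl3, Gdap1 and Tnnt1, mice 4, 6 and 7 sit near the controls, and Ins2 was high in all labelled mice and in control mouse 28.

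Library measures differed as well. Total counts were 8038666 to 14850682 in the labelled mice and 12792831 to 21633091 in the controls. mRNAs of the mitochondrial genome took 14.8% to 17.3% of the counts in the labelled mice and 17.2% to 21.2% in the controls, and Gm42418, a locus that overlaps ribosomal RNA, took 8.27% to 10.4% and 6.51% to 9.78%. Summed levels of 11 skeletal muscle markers overlapped, at 103707 to 142020 CPM against 105279 to 133623. Of the markers of other cell types, those of liver (24 genes) summed to 31.8 to 817 CPM in the labelled mice and 27 to 230 in the controls, those of Schwann cells (7 genes) to 152 to 364 and 164 to 233, and those of fat cells (10 genes) to 432 to 566 and 413 to 611. No tested gene of these 3 lists passed, and their part in the results was not tested except as a covariate for liver and fat.

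Of 13531 genes tested, 408 passed an adjusted p of 0.05 or less in limma, which is 3.02%. There were 139 higher in the labelled mice (1.03%) and 269 lower (1.99%), and the median log2 fold change was 0.47 over the higher genes, -0.37 over the lower genes and 0.00 over all genes. An unadjusted p under 0.05 was reached by 2432 genes. The groups did not overlap in 80 genes (0.591% of those tested), of which 59 passed the test, 17 higher and 42 lower.

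How many genes passed depended on single mice. Without the control mice 10, 13 and 25 only 21 genes passed, 4 higher and 17 lower, and 19 of them were among the 408. Without labelled mice 4, 6 and 7 the number was 924, 418 higher and 506 lower, and 345 were among the 408. Both exclusions were chosen after seeing the data. Labelled mice 4, 6 and 7 were picked for lying near the controls, so larger differences without them are no support, here or in the lists below. Leaving out single mice gave 131 genes without control mouse 10, 232 without control mouse 25, and 256, 241, 187 and 189 without labelled mouse 1, 2, 21 and 22. Each labelled mouse lay outside the range of all 7 controls, in the direction of the call, in many of the 408 genes: 365 in mouse 22, 364 in mouse 21, 332 in mouse 2, 330 in mouse 1, 306 in mouse 7, 252 in mouse 6 and 197 in mouse 4. These counts describe the genes that the same mice had chosen.

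**Figure D2:**
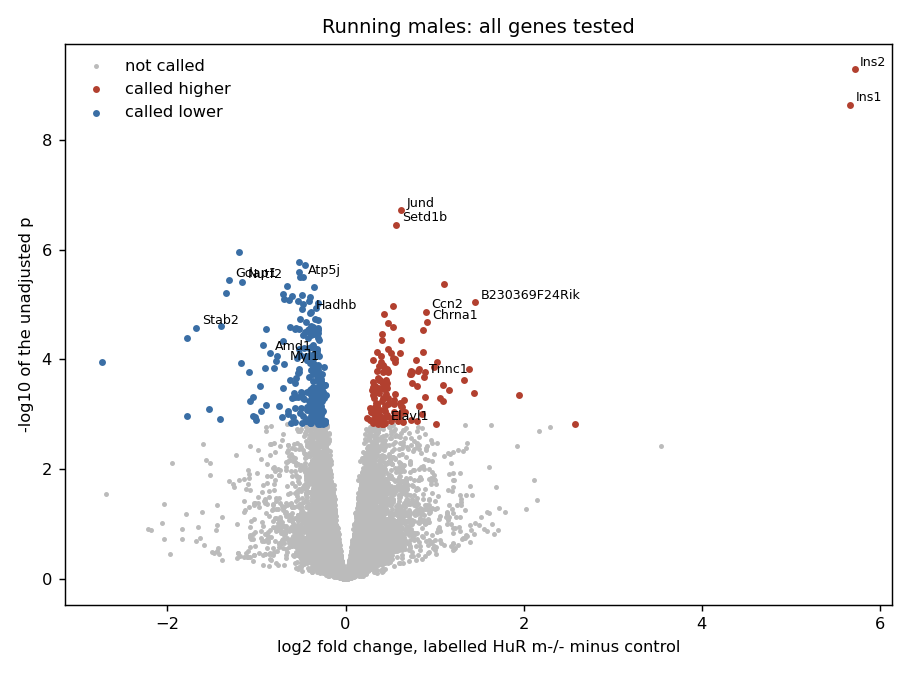
Log2 fold change (labelled HuR m-/- minus control, x axis) against -log10 of the unadjusted p (y axis) for each of the 13531 genes tested in running males, with the 139 genes called higher in red and the 269 called lower in blue. Called genes lie mostly within 1 log2 unit of 0 (33 lie at or beyond it), and Ins1 and Ins2 lie far to the right.

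Transcripts of the mitochondrial respiratory chain were lower in the labelled mice. Of 78 nuclear-encoded subunits tested, 21 were called lower and none higher, 55 had an unadjusted p under 0.05 and a negative change, and 73 of 78 had a negative change. Their median log2 fold change was -0.20, against 0.00 over all genes. Over all 13531 genes tested, 1.99% were called lower and 1305 had an unadjusted p under 0.05 and a negative change. Of the complex I genes, which encode the NADH dehydrogenase, 9 of 38 were called lower, and of the 13 genes of complex IV, cytochrome c oxidase, 4 were. In complex III, the cytochrome bc1 complex, 1 of 9 was called lower, and in complex V, the ATP synthase, 6 of 17.

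Atp5j, which encodes coupling factor 6 of the ATP synthase, was at 133 CPM in the lowest, 149 in the median and 165 in the highest labelled mouse. The controls were at 174, 215 and 260 CPM, so the groups did not overlap. Its log2 fold change was -0.48 (SE 0.09, adjusted p = 0.00432 by limma). Ndufa10, a complex I subunit, was at 222 to 280 CPM in the labelled mice and at 293 to 353 in the controls, again without overlap, with a log2 fold change of -0.35 (SE 0.06, adjusted p = 0.00438). Cycs encodes cytochrome c, the carrier between complexes III and IV, and was at 72.6 to 97.0 CPM against 86.5 to 126 CPM, with a log2 fold change of -0.37 (SE 0.10, adjusted p = 0.0372).

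The mitochondrial genome encodes further subunits of the same complexes. Of the 8 tested 4 were called lower and none higher, where 1.99% of all genes tested were called lower. The median log2 fold change of the 8 was -0.25. mt-Nd4 was the one with the smallest p, at 45424 to 59461 CPM in the labelled mice and 57325 to 76983 in the controls, and changed by -0.40 (SE 0.08, adjusted p = 0.00481 by limma). mt-Cytb (-0.34), mt-Nd2 (-0.38) and mt-Nd5 (-0.24) were the others called. The changes of 6 of the 8 were negative, and mt-Nd6, at a far lower level, had a positive one of 0.44 (adjusted p = 0.247 by limma, unadjusted p = 0.0377). Such transcripts make up a large share of all counts, so each library's share of mitochondrial mRNA, given above, moves with this list.

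Genes that feed the chain were lower too. Of all 13531 genes tested, 1.99% were called lower and 1305 had an unadjusted p under 0.05 and a negative change. In fatty acid uptake and oxidation 5 of 29 genes were called lower and none higher (median -0.19, 25 of 29 negative): Hadh, Hadhb and Hadha, enzymes of the later steps of β-oxidation, Acadl, which opens the cycle on long chains, and Lpl, which frees fatty acids from lipoproteins in the capillary. Hadhb was at 83.8, 101 and 121 CPM (lowest, median, highest) in the labelled mice and at 124, 135 and 154 in the controls, without overlap, and its log2 fold change was -0.40 (SE 0.08, adjusted p = 0.00582 by limma). In the pyruvate list 3 of 14 were called lower and none higher, namely Mpc2, a subunit of the carrier that brings pyruvate into mitochondria (-0.38, SE 0.08), and Dlat (-0.27) and Pdha1 (-0.26) of the pyruvate dehydrogenase complex. The citric acid cycle had 2 of 17 called lower, Dlst (-0.34) and Sdhb (-0.26), and 12 of 17 with an unadjusted p under 0.05 and a negative change (median -0.19). Glycolysis genes gave no call in either direction among 24 tested, with 2 higher and 5 lower at an unadjusted p under 0.05 and a median of -0.06, and glycogen metabolism gave none among 20.

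Without the control mice 10, 13 and 25 the median of the respiratory chain list was -0.21 and that of the mitochondrially encoded list -0.32, while 1 gene of each was called. Without labelled mice 4, 6 and 7 the medians were -0.23 and -0.32, with 30 and 6 called lower. Leaving out 1 mouse at a time gave 10 (without control mouse 10) to 31 (without labelled mouse 4) nuclear-encoded subunits called lower, with the median between -0.23 and -0.18. In fatty acid oxidation the same exclusions gave 1, 9 and 2 to 7 called lower, the median staying between -0.24 and -0.13. In the citric acid cycle they gave 1, 5 and 0 (without control mouse 10) to 6 (without labelled mouse 4) called lower, and in the pyruvate list 0, 3 and 1 (without control mouse 10) to 3.

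Promoters of respiratory chain genes are known for sites of nuclear respiratory factor 1 (NRF1). The letters GCGCATGC, the centre of that site, were looked for on both strands in the RefSeq promoters (GRCm38.p6, 250 bases before to 50 after each start), which were matched by symbol for 10033 of the 13531 genes tested. A gene was counted if at least 1 of its promoters held the letters. This was so in 10 of 62 matched genes of the respiratory chain list, which is 16.1%. It was so in 5.84% of all matched genes, 5.74% of those called lower and 6.60% of those called higher. AAGGTCA, part of the site of oestrogen-related receptors, was in 7 genes of the respiratory chain list (11.3%), in 5.26% of the genes called lower, 0.943% of those called higher and 3.84% of all. TGACGTCA of CREB and ATF factors was in 5 of the list (8.06%), and in 4.78%, 5.66% and 3.52% of the others in the same order, and CCGGAAG of ETS factors in 14 (22.6%), and in 20.6%, 20.8% and 19.4%. All 4 sets of letters were thus at a higher share in the list than over all matched genes, and no test was made of these shares. A match describes the letters only, and nothing here measured binding. The 3 promoters below belong to called genes of the respiratory chain and citric acid cycle that hold the NRF1 letters, shown in capitals in the reverse orientation GCATGCGC, and they are given to show where in the promoter the letters lie: Ndufa6 at chr15:82354242-82354541 (minus strand), Cycs at chr6:50566520-50566819 (minus strand) and Sdhb at chr4:140961021-140961320 (plus strand).
Ndufa6: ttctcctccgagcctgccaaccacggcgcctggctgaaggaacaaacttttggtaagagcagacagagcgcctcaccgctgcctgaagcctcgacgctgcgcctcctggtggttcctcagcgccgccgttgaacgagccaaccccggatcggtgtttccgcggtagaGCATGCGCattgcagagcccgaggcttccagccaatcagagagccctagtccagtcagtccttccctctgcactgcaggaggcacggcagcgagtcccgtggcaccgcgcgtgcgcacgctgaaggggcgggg
Cycs: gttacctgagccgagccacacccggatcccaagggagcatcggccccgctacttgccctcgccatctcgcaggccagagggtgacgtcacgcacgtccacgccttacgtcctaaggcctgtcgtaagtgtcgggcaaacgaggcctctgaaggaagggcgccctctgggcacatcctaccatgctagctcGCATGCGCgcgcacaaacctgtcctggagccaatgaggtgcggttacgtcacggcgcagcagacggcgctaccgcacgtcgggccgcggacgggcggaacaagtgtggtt
Sdhb: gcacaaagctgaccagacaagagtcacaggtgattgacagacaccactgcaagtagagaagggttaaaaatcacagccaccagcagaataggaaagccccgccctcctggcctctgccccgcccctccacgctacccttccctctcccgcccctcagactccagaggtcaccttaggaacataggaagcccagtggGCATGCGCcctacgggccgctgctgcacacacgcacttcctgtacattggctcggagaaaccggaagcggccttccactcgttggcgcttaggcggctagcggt
The capitals begin at -83, -60 and -54 relative to the annotated start in Ndufa6, Cycs and Sdhb. These genes fell by 0.31, 0.37 and 0.26 on the log2 scale in the labelled mice.

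**Figure D3:**
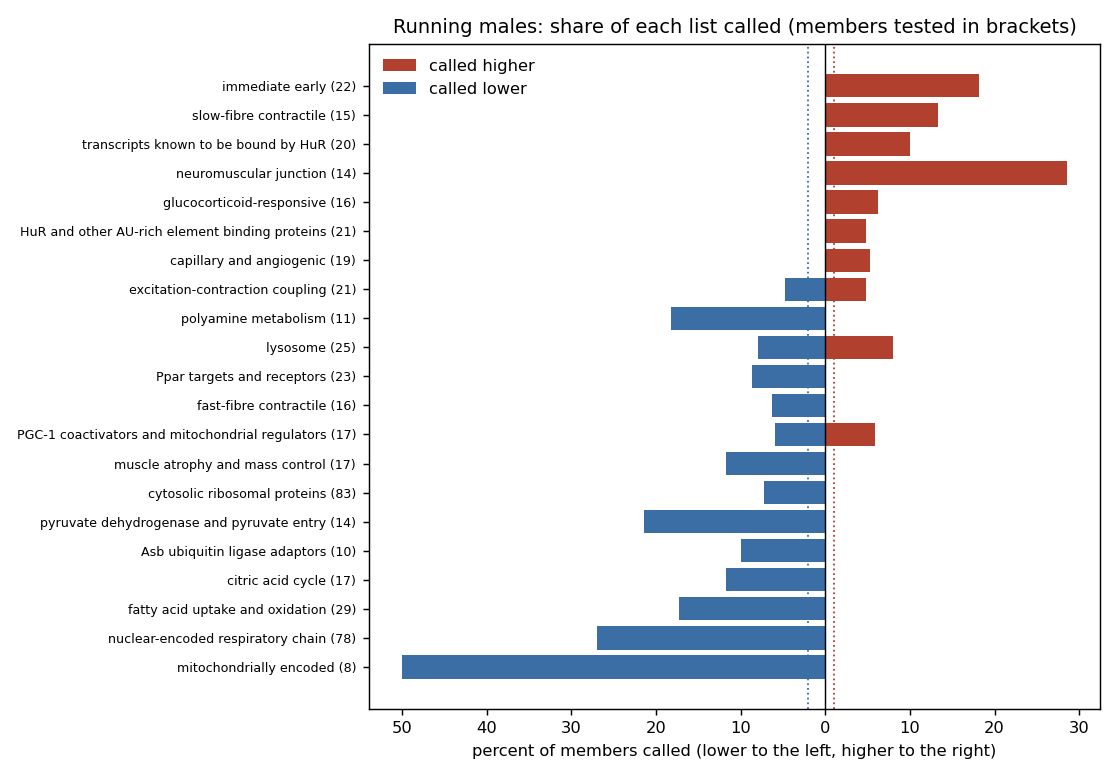
Percent of the members of each gene list called higher (red, to the right) or lower (blue, to the left) in labelled HuR m-/- running males, for the 21 lists with at least 1 call and with the number of members tested in brackets, while dotted lines mark the percent over all 13531 genes. Lists of the respiratory chain and fuel oxidation lie to the left only, and neuromuscular junction, immediate early and slow-fibre lists to the right only.

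Immediate early genes were higher in the labelled mice. Of 22 tested, 4 were called higher and none lower, where 1.03% of all genes tested were called higher. All 22 changes were positive (median 0.44). Jund, an AP-1 transcription factor subunit, was at 33.5, 42.9 and 54.6 CPM (lowest, median, highest) in the labelled mice and at 25.1, 27.9 and 31 in the controls. Every labelled mouse was above every control, and the log2 fold change was 0.62 (SE 0.10, adjusted p = 0.00087 by limma). Ccn2, a secreted matrix protein induced by load, was at 25.2 to 63.05 CPM against 12.8 to 32.4 (0.90, SE 0.18, adjusted p = 0.00582), Klf2, a transcription factor of endothelium, at 36.7 to 65.8 against 25.6 to 37.6 (0.62, SE 0.13, adjusted p = 0.00879), and Btg2, an antiproliferative factor, at 8.83 to 22.6 against 7.13 to 12.3 (0.66, SE 0.17, adjusted p = 0.0287). Fos and Egr1, named after their values were seen, had log2 fold changes of 0.79 and 0.65 and did not pass (adjusted p = 0.247 and 0.207). The mean log2 CPM of the 22 genes was 3.29 to 3.99 in the labelled mice and 2.96 to 3.28 in the controls, with mice 1 and 22 the highest. Without the control mice 10, 13 and 25 the median was 0.52 with 1 call, Jund, and without labelled mice 4, 6 and 7 it was 0.64 with 8.

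CREB and ATF factors are known regulators of immediate early genes. The letters TGACGTCA were in promoters of 3 of the 18 genes matched for this list, which is 16.7%, against 3.52% of all matched genes. The promoter of Btg2 (chr1:134079106-134079405, GRCm38.p6, minus strand), a called member that holds them at -166, is shown with the letters in capitals.
Btg2: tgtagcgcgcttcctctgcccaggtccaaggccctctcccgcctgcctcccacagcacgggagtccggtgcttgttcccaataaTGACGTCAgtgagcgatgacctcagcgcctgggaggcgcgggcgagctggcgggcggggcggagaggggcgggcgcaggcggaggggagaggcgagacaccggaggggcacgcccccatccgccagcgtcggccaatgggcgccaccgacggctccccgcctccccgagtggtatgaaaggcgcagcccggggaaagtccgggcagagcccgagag

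Genes of the neuromuscular junction, the contact of the motor nerve with the fibre, included 4 of 14 called higher and none lower (median 0.09). Of all genes tested, 1.03% were called higher. Chrna1, Chrnb1 and Chrne encode the α, β and adult ε subunits of the muscle acetylcholine receptor, and Ache encodes the enzyme that breaks acetylcholine down. Chrna1 was at 22.7 to 48.2 CPM in the labelled mice and 11.8 to 23.9 in the controls, with labelled mouse 6 alone inside the control range, and its log2 fold change was 0.92 (SE 0.19, adjusted p = 0.00713 by limma). Chrne changed by 0.87 (SE 0.18, adjusted p = 0.00713), Ache by 1.06 (SE 0.27, adjusted p = 0.0272) and Chrnb1 by 0.43 (SE 0.12, adjusted p = 0.0373). The remaining members, among them, picked after their values were seen, Musk (0.07), Rapsn (-0.08) and Dok7 (0.19), gave no call. Leaving out control mouse 10 left 2 calls, without the control mice 10, 13 and 25 none remained (Chrna1 0.66, adjusted p = 0.181), and without labelled mice 4, 6 and 7 there were 4.

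Contractile genes of slow fibres were shifted upward. All 15 changes were positive, with a median of 0.42, and 2 passed: Tnnc1, slow troponin C, and Tnnt1, slow troponin T. Of all genes tested, 1.03% were called higher. Tnnc1 was at 89.3, 178 and 255 CPM (lowest, median, highest) in the labelled mice and at 48.1, 94.6 and 135 in the controls, and changed by 0.88 (SE 0.21, adjusted p = 0.0175 by limma). Tnnt1 was at 193 to 226 CPM in labelled mice 1, 2, 21 and 22, at 102, 111 and 80.2 in mice 4, 6 and 7 and at 80.3 to 129 in the controls, and changed by 0.63 (SE 0.17, adjusted p = 0.0396). Myh7, the slow myosin heavy chain, likewise picked afterwards, had a log2 fold change of 0.50 and did not pass (adjusted p = 0.10). Without labelled mice 4, 6 and 7 the median was 0.69 with 11 called higher, without the control mice 10, 13 and 25 it was 0.28 with none, and leaving out 1 mouse gave 0 (without control mouse 10) to 8 (without labelled mouse 7). Of 16 fast-fibre genes Myl1 alone was called, and Myh4, the fast myosin heavy chain, changed by -0.10 (adjusted p = 0.43).

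**Figure D4:**
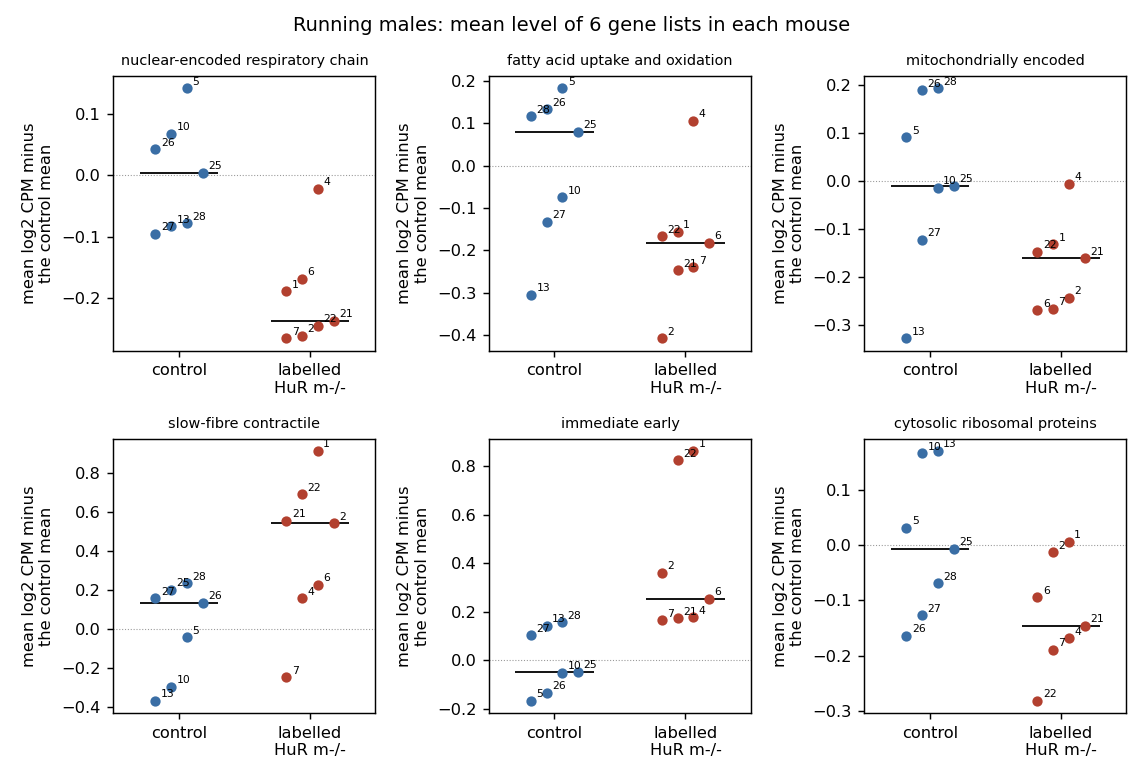
Mean log2 CPM of the tested members of 6 lists in each running male, minus the mean of the controls (y axis, points with the mouse number, median as a line). Respiratory chain means were lower in every labelled mouse but mouse 4 than in every control, the slow-fibre list separates labelled mice 1, 2, 21 and 22, and the immediate early means of the 2 groups do not overlap.

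Among the genes ordered by size of change that passed the test without overlap of the groups, 15 higher and 15 lower ones were taken. Higher were 2 mitochondrial tRNAs, mt-Tc (1.39) and mt-Tt (0.83), both at low counts, and B230369F24Rik (1.45), an antisense RNA whose reads cannot be told from those of an overlapping gene where strand is not known. Others were Jund, described above, Setd1b, a histone H3 lysine methyltransferase (0.57), Eed, a Polycomb subunit (0.35), and Cpsf7, an mRNA cleavage factor (0.31). Setd1b was at 31.1 to 37.4 CPM in the labelled mice against 20.2 to 26.5 in the controls (SE 0.09, adjusted p = 0.00119 by limma). Nras, the small GTPase, rose by 0.56, Qtrt2, a subunit of the enzyme that puts queuosine into tRNA, by 0.87, Dusp11, an RNA phosphatase, by 0.53, Nsmce3 of the SMC5/6 complex by 0.41, Atxn1, a transcriptional corepressor, by 0.35, and Sema6c, a semaphorin, by 0.35, beside Chic2 (0.31) and the noncoding Gm15834 (1.10).

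The 15 lower genes are given in the same way, with no grouping tested, and Atp5j, described above, is among them. Phyh, which oxidizes phytanic acid, was at 69.0 to 94.2 CPM against 99.2 to 128 (-0.52, SE 0.09, adjusted p = 0.00432 by limma), Acot13, a mitochondrial acyl-CoA thioesterase, fell by 0.51, Lonp2, the peroxisomal protease, by 0.48, Dhrs4, a peroxisomal carbonyl reductase, by 0.63, and Hadhb by 0.40. Nutf2, the import factor of Ran, was at 4.45 to 13 CPM against 13.8 to 21.9 and fell by 1.16 (SE 0.21, adjusted p = 0.00432). Vamp1 and Snap47, SNARE proteins of vesicle fusion, fell by 0.66 and 0.43, Upf2, a core factor of nonsense-mediated decay, by 0.45, Ampd1, the muscle AMP deaminase, by 0.44, and Rwdd1, Pdrg1 and Aktip by 0.53, 0.42 and 0.42. 4930556M19Rik, which lay at 0.447 to 1.98 CPM in the labelled mice, fell by 1.35.

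Ins1 and Ins2, the 2 mouse insulin genes, had the smallest p-values of all. Reads of Ins1 numbered 50 to 106 in the 7 labelled mice, 86 in control mouse 28 and 0 to 3 in the other 6 controls, and reads of Ins2 numbered 76 to 136, 108 and 0 to 6. Fitted log2 fold changes were 5.67 (SE 0.70, adjusted p = 1.57e-05 by limma) and 5.72 (SE 0.67, adjusted p = 7.15e-06). In the other 42 mice of the study the highest counts were 3 and 4. Insulin is made in pancreatic islets. Of the other islet hormones looked for, Gcg, Ppy and Iapp were not listed among the 15539 genes, while Sst was listed but did not pass the filter for testing. The 11 digestive enzyme genes of the pancreas looked for were not listed either. Where the insulin reads came from was not tested. Without control mouse 28 the comparison gave 377 genes, 336 of them among the 408. With that mouse left out, high insulin reads were in every labelled mouse and in no control. That fit therefore cannot tell the label from the source of the reads, and in the full comparison control mouse 28 alone sets them apart.

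Further lists held a few calls each, where 3.02% of all genes tested were called. Odc1 and Amd1, which make the precursors of polyamines, were both called lower among 11 polyamine genes, Amd1 at 90.5, 210 and 403 CPM (lowest, median, highest) in the labelled mice and at 355, 367 and 513 in the controls (-0.85, SE 0.19, adjusted p = 0.0121 by limma). Cytosolic ribosomal proteins had 6 of 83 called lower and none higher (median -0.12), which became 0 without control mouse 10 and 12 without control mouse 26. Map1lc3b, an autophagosome protein (-0.51), and Gadd45g (-0.59) were called lower among 17 genes of muscle mass control, Asb10 (-0.37) among 10 Asb adaptors, and Rxra (-0.31) and Lpl (-0.41) among 23 Ppar targets and receptors. Lysosome genes went both ways, with Atp6v0d1 (0.38) and Lamp2 (0.31) higher and the proteases Ctsb (-0.26) and Ctsd (-0.28) lower among 25. Of the mitochondrial regulators Gabpa, an ETS factor, was higher (0.42) and Perm1, a muscle partner of PGC-1, lower (-0.51). Orai1 (0.33) and Trdn (-0.39) were the only calls among the 21 genes of excitation-contraction coupling. Notch1 (0.41) and Errfi1 (0.53) were the single calls of the capillary (19 genes) and glucocorticoid (16 genes) lists. The medians of the excitation-contraction, capillary and glucocorticoid lists were 0.02, 0.03 and 0.06.

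Among 20 transcripts known to be bound by HuR, 2 were called higher, Mcl1 (0.31), an anti-apoptotic protein, and Actb (0.32), and none lower (median 0.19), while at an unadjusted p under 0.05 there were 9 higher and 5 lower. No member was called without control mouse 10 or without control mice 10, 13 and 25, and without labelled mice 4, 6 and 7 there were 3 higher and 2 lower. Of 21 proteins that bind AU-rich elements Elavl1 itself was the only call. No gene was called in the lists of insulin signalling (22 genes), proteasome (38), myogenic cells (14), clock (19), heat shock (21), endoplasmic reticulum stress (13), interferon response (20), lipid synthesis (18) or collagen and matrix (28), in which 2, 6, 4, 3, 5, 5, 4, 3 and 5 genes had an unadjusted p under 0.05 in limma. Over all 13531 genes tested 2432 reached that level, 1127 higher and 1305 lower, while 1.03% were called higher and 1.99% lower. The members of these and of the glucose lists with the smallest p did not pass either, such as Pfkfb4, a regulator of glycolysis (-0.37, adjusted p = 0.0756), Phka1, a phosphorylase kinase subunit (-0.33, adjusted p = 0.0754), Cdkn1a, a cell cycle inhibitor (0.70, adjusted p = 0.0798), Srebf1, a regulator of lipid synthesis (0.39, adjusted p = 0.0984), and Psma4, a proteasome subunit (-0.36, adjusted p = 0.11).

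HuR binds U-rich and AU-rich letters, so the longest annotated 3′ untranslated region of each gene (GENCODE M21, GRCm38) was searched on the transcript strand. A run of 7 T was found in 58.9% of the genes called higher, 33.9% of those called lower and 45.5% of all tested, and the AU-rich motif TATTTAT in 45.0%, 23.6% and 31%. The regions of the genes called lower were also shorter, at a median of 884 bases against 1203 for the genes called higher and 1235 for all, and a longer region holds more matches. Matches per kilobase were counted at every start position, so a stretch longer than 7 T gave several overlapping matches. There were 3.12 such matches of 7 T in the genes called higher, 1.71 in those called lower and 1.90 in all. They are not counts of separate runs. The AU-rich motif was at 0.36, 0.28 and 0.29. The shorter pentamer known from AU-rich elements, which the motif contains, was at 1.90, 1.84 and 1.83. No test was made of these shares. Across 13505 genes the rank correlation of the log2 fold change with transcript length was 0.04 and with GC content 0.04, given as a description because the genes share the same libraries.

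The same contrast in locked-wheel males and in running females used other mice. It gave 60 calls of 13486 genes (0.445%) in locked males and 6 of 13531 (0.0443%) in running females. An unadjusted p under 0.05, in either direction, was reached by 1925 and 2006 of these genes. Over the genes also tested in running males the median log2 fold change was 0.00 and 0.01. Of the 269 genes lower in running males, 240 were lower in locked males (median -0.17, 109 at an unadjusted p under 0.05, 13 called) and 249 in running females (median -0.15, 97 and 3). Of the 139 higher genes, 91 of the 136 tested in locked males (median 0.08) and 109 in running females (median 0.11) had the same sign, 27 and 34 of them at an unadjusted p under 0.05.

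A set of 65 called genes, 53 lower and 12 higher, had the same direction with an unadjusted p under 0.05 in both other comparisons. It held Myl1 (-0.69 in running males, -0.77 in locked males, -0.68 in running females), Gdap1 (-1.30, -0.88, -0.92), Fhl3 (-1.0, -1.23, -0.90), Tmf1, a Golgi protein (-0.90, -0.97, -0.69), Tnnc1 (0.88, 0.79, 0.59) and Chrna1 (0.92, 0.52, 0.68). The set was chosen for its agreement, which is therefore no result.

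The list medians are given side by side. The slow-fibre median was 0.42 in running males, 0.43 in locked males and 0.32 in running females, whereas the respiratory chain median was -0.20, -0.07 and -0.10, that of fatty acid oxidation -0.19, -0.08 and -0.02 and that of immediate early genes 0.44, -0.01 and 0.27. Whether these medians differ was not tested. For single genes, the interaction of the label with the wheel in males, fitted over all 56 mice, was called in 5 of 14321 genes (0.0349%), with 1275 at an unadjusted p under 0.05. In that fit Senp3, a SUMO protease, had a log2 fold change of 0.81 in running and -0.80 in locked males, Inpp5k, an inositol phosphatase, 0.37 and -0.23, Cd59a, a complement inhibitor, -0.61 and 0.30, Slc25a11, the mitochondrial oxoglutarate carrier, -0.22 and 0.22, and Ins1 5.75 and 0.01. The call of these 5 depended on the tool, since edgeR gave 0 and DESeq2 13. The interaction of the label with sex in running mice was called in 0 of 13531 genes (0%) by limma, with 1178 at an unadjusted p under 0.05, in 0 by edgeR and in 4 by DESeq2.

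**Figure D5:**
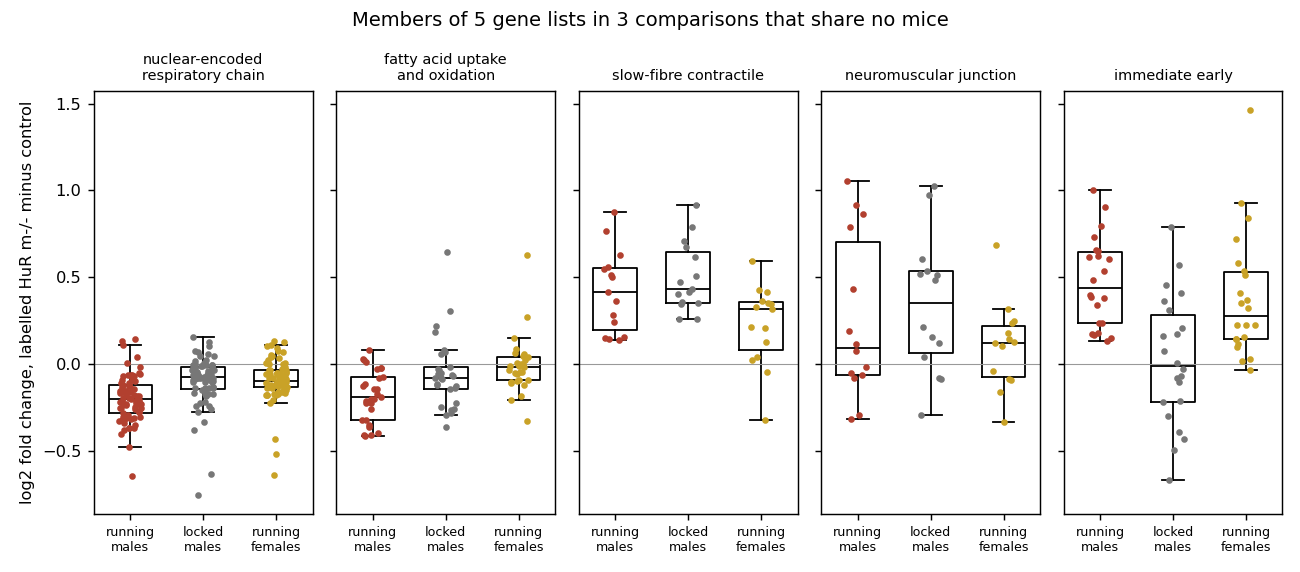
Log2 fold changes (labelled HuR m-/- minus control, y axis) of the members of 5 gene lists in running males, locked males and running females, with a point for each gene and boxes for the quartiles and median. Slow-fibre genes lie mostly above 0 in all 3 comparisons, with medians of 0.42, 0.43 and 0.32, while the immediate early median was 0.44, -0.01 and 0.27.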

How the data were processed

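Gastrocnemius RNA of 56 mice was sequenced, and the authors deposited 1 table of raw counts, whole numbers of reads for each of 15539 genes without normalization (smallest gene total 168, so low genes had been removed). The paper describes stranded total RNA libraries, the labels a 3′ end kit with 50 bp forward reads. The submitters' processing notes name R 4.0.3, edgeR 3.38.4 and GRCm38, and the aligner is not given in the sources used here. Groups came from the labels. Symbols and positions came from GENCODE M21 (15503 genes matched).

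Counts of the 28 running-wheel mice were filtered with filterByExpr and TMM-normalized in edgeR 4.0.16, weighted by voom and fitted with limma 3.58.1 in R 4.3.3 over the 4 groups. The Benjamini-Hochberg method ran over all genes tested, and calls were made at 0.05 or less. Locked males were fitted over the 28 locked-wheel mice and the wheel interaction over all 56. CPM used TMM library sizes, the permutation tests log2(CPM + 0.5) and all 3432 splits. Total counts ran from 6639782 to 21633091, which limits the precision of low genes. The code was tested on simulated data. Alternatives were edgeR's quasi-likelihood test, DESeq2 1.42.0, limma trend, sample quality weights, other normalizations and filters, other mice in the fit, marker covariates, other thresholds and each mouse left out. No 2 libraries of a group were duplicates, since in all 21 pairs their counts differed by more than counting error. Gene lists and members were chosen with earlier results of these data known. The rule for named genes took Elavl1, Myl1, the 15 called genes with the largest rise and the 15 with the largest fall among those with a mean count of at least 10 and no overlap of the groups, called members of lists, up to 3 members with the smallest p and the most abundant one where a list had no call (not all are printed), and up to 5 genes for each interaction; others are said to be chosen afterwards. No set test was run. Results on some genes are not reported here.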

Additional observations from a re-analysis of the deposited data

Results flagged for a closer look

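The change with the HuR label was called as differing between running and locked males in 5 genes, by the interaction term over all 56 mice in limma. By edgeR 0 genes were called, and by limma in the 28 males alone also 0. DESeq2 called 13, of which 3 were among the 5. The log2 difference, running minus locked, was 1.61 for Senp3 (adjusted p = 0.0108), 5.74 for Ins1 (adjusted p = 0.0242), -0.90 for Cd59a (adjusted p = 0.0273), -0.44 for Slc25a11 (adjusted p = 0.0319) and 0.60 for Inpp5k (adjusted p = 0.0414). In that fit the label went with a change of 0.81 for Senp3 in running males and -0.80 in locked males.

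Dixon's test on the 7 mice of each group, applied to 148 genes and so to 296 groups, set 16 values apart from the rest of their group, and chance alone sets about 1 in 20 groups apart. Control mouse 28 held the only high control values of Ins1 (6.98 CPM) and Ins2 (8.77 CPM). Control mouse 13 was apart with the lowest Atp5j2 (635 CPM) and Perm1 (52.6 CPM) and the highest Chrnb1 (15.8 CPM), control mouse 10 with the highest Ampd1 (652 CPM) and the lowest Cd59a (76.8 CPM), and control mouse 27 with the highest Eno1 (7.29 CPM). Among labelled mice, mouse 4 had the highest Hadh (172 CPM) and mt-Nd4 (59461 CPM), mouse 7 the highest Eno1 (10.8 CPM), mouse 22 the highest Sema6c (39.7 CPM), mouse 1 the highest Myog (16.4 CPM) and Dnajb4 (109 CPM), and mouse 6 the highest Col8a1 (32.2 CPM) and Postn (21.6 CPM).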

How the results depend on the processing

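The count of 408 genes was 804 with sample quality weights, 223 with the 14 running males alone, 210 with liver markers as a covariate, 818 at an adjusted p of 0.1, 93 with a 1.5-fold threshold, 924 without labelled mice 4, 6 and 7 and 21 without control mice 10, 13 and 25, the last 2 chosen after seeing the data, and ran from 131 to 602 with each mouse left out. It stayed within 1.5 times under the other alternatives (327 to 592). The wheel interaction gave 0 genes by edgeR (1495 at an unadjusted p under 0.05), 13 by DESeq2, 34 with quality weights, 0 in the 28 males alone (1325) and 0 without control mice 10, 13 and 25 (937), and 1 to 9 with a mouse left out. The sex interaction gave 4 by DESeq2 and 0 to 2 with a mouse left out. Elavl1 kept its direction but not its call by edgeR (0.38), limma trend (0.44), without a filter (0.43), in the 14 males (0.44), with the liver (0.45) or adipocyte (0.47) covariate, without labelled mice 4, 6 and 7 (0.41) and without control mice 10, 13 and 25 (0.078), and ran from 0.33 to 0.52 with a mouse left out, losing its call in 9 of 14 such fits (adjusted p from 0.019 to 0.156). Myl1 lost its call in the fit of all 56 mice (-0.70, adjusted p = 0.0752) and without control mice 10, 13 and 25 (-0.65, adjusted p = 0.145), and ran from -0.79 to -0.62 with a mouse left out. No named gene changed sign under any alternative, but the named genes were largely picked by call or small p in these same data. A kept sign is therefore no support. Of 146 of them, not all called, 98 lost their call without control mice 10, 13 and 25, and 45 with the liver covariate. No paired analysis was possible because the compared groups of running males share no mouse number.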
